A study of Mus musculus with 8 samples.

Results

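A set of 9 genes of blood clotting, clot removal and the thrombomodulin pathway (F3, Tfpi, Thbd, Procr, Vwf, Plat, Plau, Plaur and Serpine2) were followed in bEnd3 cells, a mouse brain endothelial line made by transforming brain vessel cells with the polyoma virus middle T antigen. The 9 genes were taken by name from the 35852 rows of the gene-level table, after its Ensembl gene identifiers had been matched to GENCODE M21 symbols. Poly(A)-selected RNA was sequenced from 4 samples labelled as given 5 µM corticosterone, the main glucocorticoid of mice, for 24 h and from 4 labelled as kept in culture medium for 24 h. All groups were the same line in serum-containing medium, and no genotype or other agent separated them. For the medium samples, the protocol text on treatment mentions corticosterone too, and the labels give no vehicle. Since nothing says that the 4 samples of a group were grown apart, the p-values reflect only the spread among those samples, which could be technical.

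Clotting starts when tissue factor, encoded by F3, binds a plasma factor and leads to thrombin, and tissue factor pathway inhibitor, encoded by Tfpi, blocks this first step. On the endothelial surface thrombomodulin, encoded by Thbd, captures thrombin, and the endothelial protein C receptor, encoded by Procr, presents protein C to that complex, which turns it into the anticoagulant activated protein C. Fibrin is removed by plasmin, which tissue-type and urokinase-type plasminogen activators (Plat and Plau) release from plasminogen, while serpins such as the product of Serpine2 inhibit these proteases.

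The summed estimated counts ran from 27699224 to 33193008 per library with corticosterone and from 19746273 to 46206883 in medium. Fkbp5, a glucocorticoid-induced gene used to check the labels, was at 269 ± 3.06 CPM (counts per 1000000 after TMM scaling for depth; mean ± SD, n = 4) with corticosterone and 39.4 ± 1.92 CPM in medium. Corticosterone replicates 1 and 2 stood apart in effective length. In 100% of their transcripts of at least 1000 nt it equalled the length plus 1 nt. In the other 6 libraries it was shorter than the length by a median of 340 to 360.3 nt. The TPM (relative transcript abundances corrected for length) of replicates 1 and 2 are therefore on another scale, so treatment was tested on counts. The counts of some genes split this way too. Plau was at 431 and 407 CPM in corticosterone replicates 1 and 2 and at 374 and 390.1 CPM in replicates 3 and 4. Those of others, such as Thbd, did not. All 11 endothelial markers examined were above the filter, with a lowest mean of 119 CPM. Their summed level was 9228 to 9543 CPM with corticosterone and 8439 to 8939 CPM in medium. By edgeR, 6 markers were higher and 3 were lower, where 19.5% and 20.6% of all genes tested were. Platelet markers, for a cell type that also makes Vwf, summed to 15.4 to 19.1 CPM with corticosterone and 15.5 to 17.9 CPM in medium. Of the 3 tested, 0 were called by edgeR, DESeq2 or limma (1 at an unadjusted edgeR p under 0.05). Of all genes tested, edgeR called 40.1%. Fibroblast markers summed to 5.74 to 6.69 CPM against 19.9 to 21.9 CPM, mostly from Pdgfra, and their part in the changes of the 9 genes was not tested. Hepatocyte markers summed to at most 0.394 CPM, with Alb at 0.

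After corticosterone the anticoagulant receptor genes moved in opposite directions: Thbd rose 1.74-fold and Procr fell to 0.625 of its medium level. Vwf fell 2.37-fold, the largest change among the 9. Of the plasminogen activators, Plat rose 1.46-fold and Plau fell to 0.696. Tfpi rose and the urokinase receptor gene Plaur fell by smaller amounts. Serpine2 did not pass the test, and F3 had too few counts for one.

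Among these, 7 of the 8 members tested had an adjusted p under 0.05 (edgeR's quasi-likelihood test, Benjamini-Hochberg over 13272 genes), where 40.1% of all genes tested did. Of the 8, 3 were higher, against a background of 19.5%, and 4 were lower, against 20.6%. The groups did not overlap in CPM for 7 of the 8, against 39.9% of all genes tested. A called change of at least 1.5-fold was seen in 3 of the 8, Thbd, Procr and Vwf, as 7.87% of all genes tested did. The median log2 fold change of the 8 was -0.15, beside -0.0046 over all genes. The members were chosen with earlier results of these data known, so the comparisons with all genes are descriptive only. In bulk RNA, fewer cells that express a gene and less RNA of it per cell cannot be told apart.

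**Figure D1:**
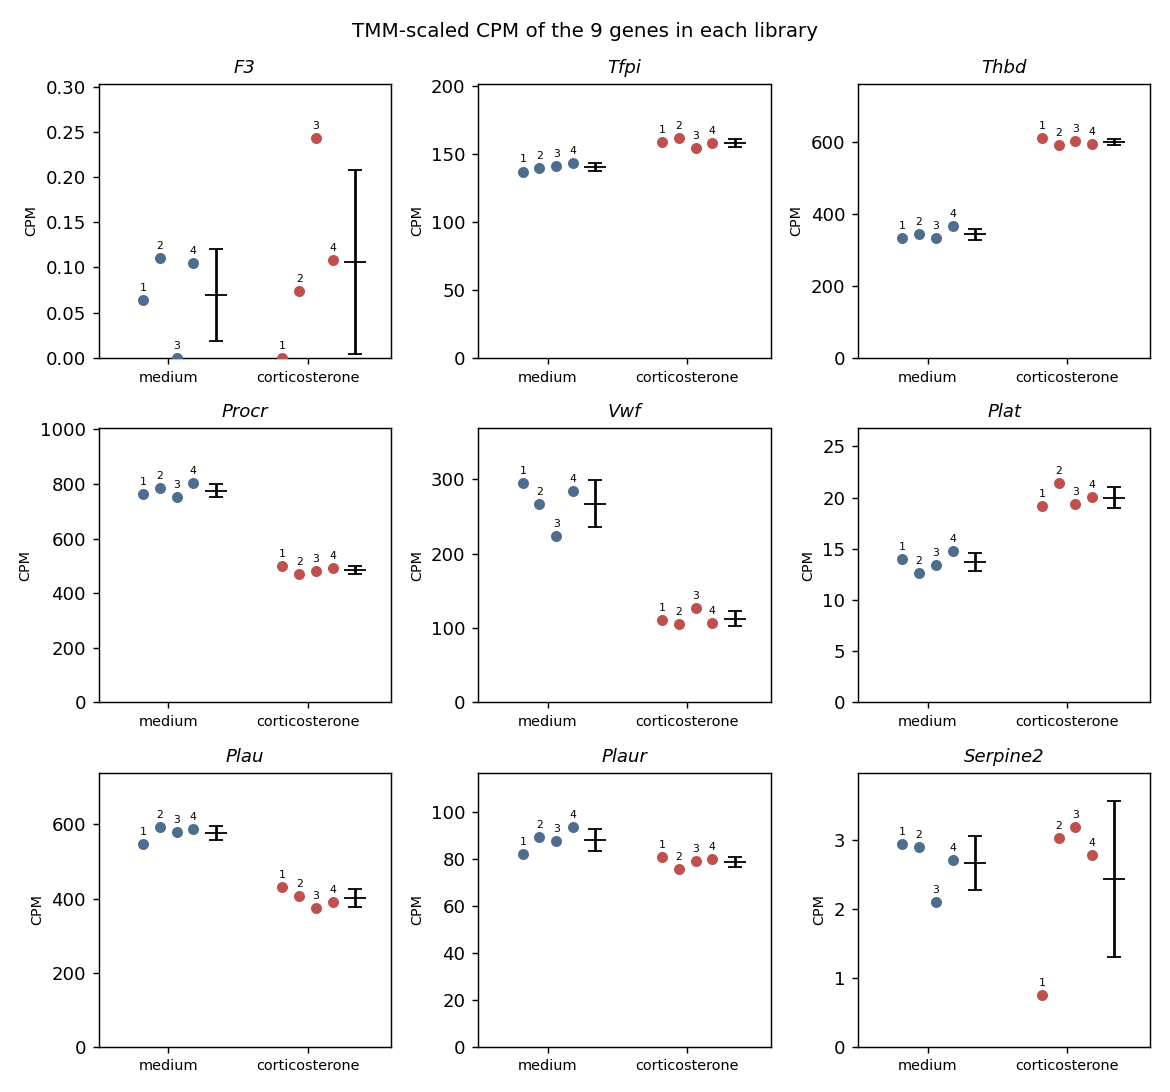
Each panel plots CPM after TMM scaling (vertical axis, starting at 0) in the 4 medium (blue) and 4 corticosterone (red) libraries, numbered by replicate, with the mean and SD in black. The 2 groups are separate for Thbd, Procr, Vwf, Plat, Plau, Plaur and Tfpi, and they overlap for Serpine2 and F3.

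Levels of different genes were compared per transcript length, over the 4 medium libraries. Procr was the most abundant member at 953 ± 6.08 TPM (SD, n = 4), above 99.4% of the 22480 genes with any TPM. Plau followed at 387 ± 9.60 TPM, then Thbd at 136 ± 6.18 TPM and Plaur at 116 ± 4.34 TPM. Each of these 4 genes was above the next in every medium library. Tfpi was at 67.8 ± 1.22 TPM and Vwf at 59.6 ± 8.04 TPM, and the ranges of these 2 overlapped. The activator gene Plat, at 8.51 ± 0.476 TPM, was far below Plau. Serpine2 was at 1.44 ± 0.174 TPM, and F3 lay between 0 and 0.0969 TPM.

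**Figure D2:**
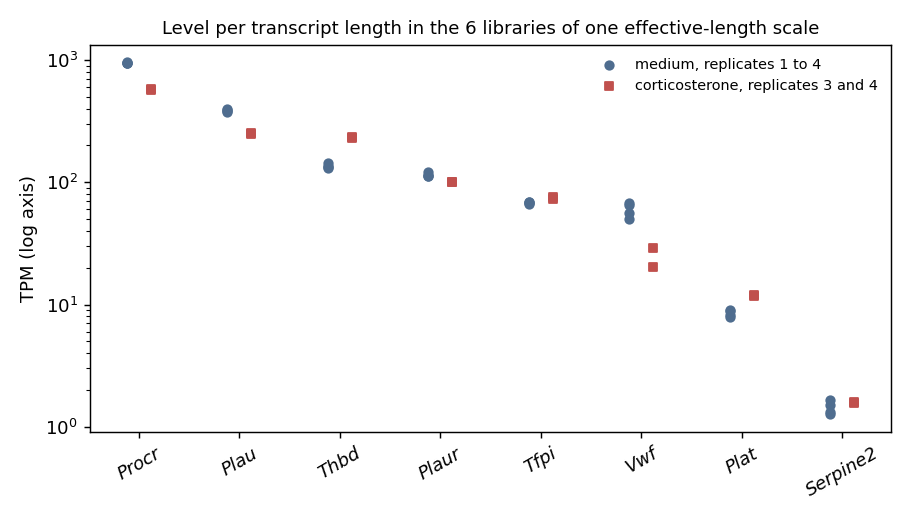
TPM on a log axis for 8 members in the 4 medium libraries (blue circles) and in corticosterone replicates 3 and 4 (red squares), the 6 libraries whose effective lengths share a scale. Medium levels descend from 953 TPM for Procr to 1.44 TPM for Serpine2, and F3, listed at 0 in 1 medium library, is left out.

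The promoter table from RefSeq (GRCm38.p6) matched 5 of the 9 members with 6 start sites. The 250 bases upstream of each were searched on both strands for the AP-1 motif TGANTCA, which reads as its own complement, and for the glucocorticoid receptor half-site AGAACA. AP-1 letters were in the windows of F3, Procr and Plaur and in 6.73% of all 32544 promoter windows, and not in those of Tfpi and Serpine2. The half-site letters were in none of the 6 member windows, against 16.0% of all windows, which says nothing of binding elsewhere. The 3 windows with AP-1 letters are shown. The letters TGACTCA of Procr and Plaur, which fell, read as TGAGTCA on the other strand. F3, with no detectable difference, holds TGAGTCA too. Thbd, Vwf, Plat and Plau had no matched start site and were not searched. Whether the letters bear on any change was not tested. Capitals mark the match, all are on the plus strand, and only bases before the GENCODE gene start are printed.
F3 (chr3:121723287-121723536): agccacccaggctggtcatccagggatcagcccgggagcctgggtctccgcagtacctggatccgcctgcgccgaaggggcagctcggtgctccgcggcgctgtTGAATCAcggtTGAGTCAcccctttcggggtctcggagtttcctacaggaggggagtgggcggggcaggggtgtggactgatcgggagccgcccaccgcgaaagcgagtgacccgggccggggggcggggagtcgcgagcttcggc
Procr (chr2:155750967-155751116): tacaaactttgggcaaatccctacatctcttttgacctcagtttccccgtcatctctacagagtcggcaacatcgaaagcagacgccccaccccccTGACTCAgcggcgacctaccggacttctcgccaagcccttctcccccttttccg
Plaur (chr7:24462233-24462482): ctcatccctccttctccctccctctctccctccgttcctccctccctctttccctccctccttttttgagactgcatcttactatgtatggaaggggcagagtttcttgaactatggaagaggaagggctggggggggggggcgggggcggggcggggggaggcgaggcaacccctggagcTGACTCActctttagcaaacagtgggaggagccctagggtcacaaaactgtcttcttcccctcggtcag
Counted from the RefSeq start, the first base of the match was 154 bases upstream in Procr (TGACTCA) and 69 bases upstream in Plaur (TGACTCA). F3 held a pair, 146 bases (TGAATCA) and 135 bases (TGAGTCA) upstream. A match is a description of letters, not a measured site.

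F3 (ENSMUSG00000028128.13, chr3:121723537-121735048, plus strand), the gene of tissue factor, was hardly counted. Its estimated counts were 0, 2, 8 and 3 in corticosterone replicates 1 to 4 and 3, 3, 0 and 3 in medium replicates 1 to 4. The groups overlapped, and 1 library in each group had no count. The 13 counts against 9 gave a depth-corrected ratio of 1.49 with an exact 95% interval of 0.589 to 3.95, which covers counting error only. Without the filter on low counts, edgeR gave an adjusted p of 0.732. A difference in F3 was not detectable at this depth.

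Most other clotting factor genes were scarce too. Of the 14 listed, F3 included, only F8, a clotting cofactor that von Willebrand factor carries in plasma, passed the filter. F8 was at 86.5, 85.5, 77.4 and 80.8 CPM with corticosterone and at 143, 154, 141 and 141 CPM in medium. The groups were apart, and F8 fell with a log2 fold change of -0.81 ± 0.039 (SE; edgeR adjusted p = 7.37e-09). The fibrinogen genes Fga, Fgb and Fgg and the factor genes F7, F9, F11 and F13b had 0 counts in all 8 libraries.

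Tfpi (ENSMUSG00000027082.15, chr2:84432855-84476775, minus strand), whose product blocks tissue factor, was at 159, 161, 154 and 158 CPM in corticosterone replicates 1 to 4. Medium replicates 1 to 4 had 137, 139, 141 and 144 CPM. Every corticosterone library was above every medium library, by a small margin. Tfpi rose 1.13-fold (95% interval 1.09 to 1.17), a log2 fold change of 0.17 ± 0.024 (SE; edgeR adjusted p = 0.000101). On TPM in all 8 libraries the log2 fold change was larger, 0.30, but did not pass limma's test (adjusted p = 0.0907). In the 6 libraries of one TPM scale, chosen as an alternative after the data were seen, it did (log2 fold change 0.13, adjusted p = 0.0420).

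The transcripts of Tfpi differed between libraries more than its total. The leading transcript, Tfpi-205, held 59.6%, 43.1%, 29.6% and 29.6% of the counts in corticosterone replicates 1 to 4. In medium replicates 1 to 4 it held 28.9%, 27.4%, 31.6% and 28.2%. Replicates 1 and 2 of corticosterone, the libraries of other effective length, were high and the other 6 were alike. The difference of 11.5 percentage points had a two-sided exact permutation p of 0.143 (smallest possible 0.0286). In the 6 libraries without these replicates it was 0.587 points (exact permutation p = 0.667, smallest possible 0.133). Tfpi-203 was at 0% in corticosterone replicate 1, and Tfpi-210 was at 0% in corticosterone replicate 2. Tfpi was the single member with a second transcript above 10% of its counts, so no other share was tested.

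Thbd (ENSMUSG00000074743.4, chr2:148404466-148408188, minus strand) encodes thrombomodulin, the thrombin-binding receptor that turns thrombin towards protein C. Its level was 609, 591, 603 and 595 CPM in corticosterone replicates 1 to 4. The 4 medium libraries, in the same order, had 333, 343, 333 and 366 CPM. The lowest corticosterone library was well above the highest medium library. The means were 599.6 ± 8.39 and 344 ± 15.5 CPM (SD, n = 4 each), a log2 fold change of 0.80 ± 0.031 (SE; edgeR adjusted p = 7.46e-10).

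Procr (ENSMUSG00000027611.12, chr2:155751117-155755471, plus strand) encodes the receptor that brings protein C to thrombomodulin. Its level was 498, 469, 479.7 and 494 CPM in corticosterone replicates 1 to 4. In medium replicates 1 to 4 it was 763, 784, 754 and 804 CPM. All corticosterone libraries were below all medium libraries. Procr's log2 fold change was -0.68 ± 0.028 (SE; edgeR adjusted p = 1.22e-09).

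Thbd and Procr were read against each other inside each library, where depth and scaling cancel. The Thbd to Procr ratio of estimated counts was 1.224, 1.259, 1.258 and 1.205 in corticosterone replicates 1 to 4. It was 0.436, 0.438, 0.442 and 0.455 in medium replicates 1 to 4. The ratio, which is not corrected for length, was 2.79 times as high with corticosterone, and its spread within a group was small (SD 0.0268 and 0.00874). Per length, Procr stayed above Thbd: in corticosterone replicates 3 and 4 Procr was at 577 and 569 TPM and Thbd at 235 and 229.6 TPM.

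Of the other anticoagulant genes of the list, 4 were tested, and 3 were higher and 0 were lower, where 19.5% and 20.6% of all genes tested were. Hs3st1, whose enzyme makes the antithrombin-binding form of heparan sulfate, rose from 14.3 ± 1.41 to 25.5 ± 1.58 CPM (log2 fold change 0.83 ± 0.071, edgeR adjusted p = 1.26e-06). Pros1, the gene of the protein C cofactor protein S, and Anxa5, a lipid-binding anticoagulant, rose with log2 fold changes of 0.23 and 0.21. On TPM in all 8 libraries neither was called by limma (log2 fold change 0.52 for Anxa5; adjusted p = 0.129 for Pros1 and 0.0616 for Anxa5), which left Hs3st1. Serpinc1, the antithrombin gene, was at 2.23 CPM with corticosterone and 2.52 CPM in medium (edgeR adjusted p = 0.36). Tfpi2, an inhibitor related to Tfpi, had 1 count in all 8 libraries. Klf2 and Klf4, transcription factors known to drive endothelial Thbd, rose with log2 fold changes of 0.92 ± 0.079 and 1.28 ± 0.066 (SE; edgeR adjusted p = 5.46e-05 and 2.48e-07).

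Vwf (ENSMUSG00000001930.17, chr6:125546774-125686679, plus strand) encodes the multimeric protein that tethers platelets to the vessel wall and is stored in endothelial granules. It was at 111, 106, 127 and 106 CPM in corticosterone replicates 1 to 4. Medium replicates 1 to 4 had 295, 267, 223 and 284 CPM. The lowest medium library, replicate 3, was still above every corticosterone library. The log2 fold change was -1.25 ± 0.105 (SE; edgeR adjusted p = 8.97e-05), with the largest SE of the 7 called. It lay between -1.32 and -1.19 over the fits that each left out 1 library. Per length, Vwf was at 28.9 and 20.3 TPM in corticosterone replicates 3 and 4.

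The 11 other genes of the Vwf storage granule list, 8 of them tested, moved both ways, 4 higher and 3 lower, where 19.5% and 20.6% of all genes tested were. Selp, the P-selectin gene stored in the same granule, rose from 148 ± 2.45 to 214 ± 11.2 CPM (log2 fold change 0.53 ± 0.035, edgeR adjusted p = 9.68e-08). Angpt2, a stored vessel-destabilising ligand, fell from 13.1 ± 0.952 to 2.81 ± 0.249 CPM (log2 fold change -2.22 ± 0.087, edgeR adjusted p = 8.63e-10), and its difference on log2(TPM + 1), a scale that understates low genes, was -1.47. The release machinery genes Rab27a and Stxbp5 rose with log2 fold changes of 0.19 and 0.25. The log2 fold change was -0.23 for Rab3d, another granule GTPase, and -0.26 for Mmrn2, an endothelial matrix gene related to multimerin. The value for Mmrn2 was -0.14 in the count fit of the 6 libraries of usual effective length and -0.53 on TPM in all 8. Rab3d was at -0.04 on TPM in all 8 libraries and not called (limma adjusted p = 0.862). Adamts13, whose protease cuts von Willebrand factor, had too few counts for a test.

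Plat (ENSMUSG00000031538.6, chr8:22757727-22782844, plus strand) encodes tissue-type plasminogen activator, which releases plasmin from plasminogen. It was at 19.2, 21.4, 19.3 and 20.01 CPM in corticosterone replicates 1 to 4. The 4 medium libraries, in the same order, had 14.0, 12.6, 13.4 and 14.7 CPM. Every corticosterone library was higher than every medium library. Plat's log2 fold change was 0.54 ± 0.058 (SE; edgeR adjusted p = 8.97e-06).

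Plau (ENSMUSG00000021822.3, chr14:20836660-20843385, plus strand) encodes urokinase, the activator that works at the cell surface. It was at 431, 407, 374 and 390.1 CPM in corticosterone replicates 1 to 4. In medium replicates 1 to 4 it was at 548, 592, 579 and 586 CPM. The groups were apart, and corticosterone replicates 1 and 2, of other effective length, were the higher in their group. Plau's log2 fold change was -0.52 ± 0.042 (SE; edgeR adjusted p = 1.83e-06), and -0.59 in the 6 libraries without them.

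Plaur (ENSMUSG00000046223.10, chr7:24462484-24475968, plus strand) encodes the receptor that holds urokinase on the membrane. It was at 80.6, 75.6, 79.0 and 79.8 CPM in corticosterone replicates 1 to 4. Medium replicates 1 to 4 had 82.2, 89.5, 87.6 and 93.3 CPM. The groups did not overlap, but corticosterone replicate 1 and medium replicate 1 were close. Plaur fell to 0.894 of its medium level (95% interval 0.845 to 0.945), a log2 fold change of -0.16 ± 0.037 (SE; edgeR adjusted p = 0.00371). On TPM in all 8 libraries this did not pass limma's test (adjusted p = 0.202), and in the 6 libraries of one scale it did (adjusted p = 0.0136). The coding transcript Plaur-201 held 93.6%, 67.4%, 87.3% and 91.5% of the counts in corticosterone replicates 1 to 4 and 82.8% to 88.4% in medium. Corticosterone replicate 2 was the low library, with 19.97% of its counts on the retained-intron transcript Plaur-202. It and corticosterone replicate 1, the highest, are the libraries of other effective length.

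Within libraries, the Plat to Plau count ratio averaged 0.05002 with corticosterone and 0.0238 in medium, 2.10 times as high and with no overlap. The Plau to Plaur ratio averaged 5.09 with corticosterone and 6.54 in medium, again with no overlap.

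**Figure D3:**
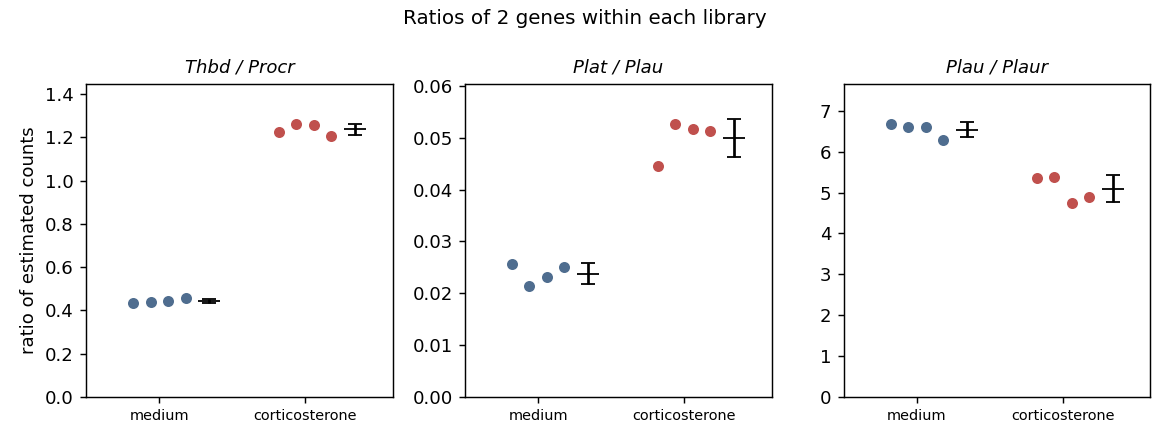
Each panel plots the ratio of estimated counts of 2 genes within each library (vertical axis from 0, no unit, not corrected for length) for medium (blue) and corticosterone (red), with the mean and SD in black. Thbd to Procr and Plat to Plau are higher in every corticosterone library, and Plau to Plaur is lower.

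Other genes of plasminogen activation moved both ways. Of the 4 tested besides the members, 2 were higher and 1 was lower, where 19.5% and 20.6% of all genes tested were. S100a10 and Anxa2, which form a plasminogen and tissue-type activator receptor, rose with log2 fold changes of 0.48 ± 0.051 and 0.20 ± 0.024 (SE; edgeR adjusted p = 3.94e-05 and 2.08e-05). Neither was called on TPM in all 8 libraries, where S100a10 was at 0.13 (limma adjusted p = 0.702). Lrp1, which clears activator and inhibitor complexes, fell by 0.21 on the log2 scale from 10.8 to 9.38 CPM. DESeq2 gave Lrp1 nearly the same log2 fold change, -0.20, without a call (adjusted p = 0.0546), and on log2(TPM + 1) in all 8 libraries Lrp1 had the opposite sign (0.15, limma adjusted p = 0.59). The plasminogen gene Plg had 0 counts in all 8 libraries.

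Serpine2 (ENSMUSG00000026249.10, chr1:79794197-79861180, minus strand) encodes protease nexin 1, an inhibitor of thrombin and of plasminogen activators. It was at 0.760, 3.03, 3.19 and 2.78 CPM in corticosterone replicates 1 to 4. The 4 medium libraries, in the same order, had 2.95, 2.91, 2.11 and 2.72 CPM. The groups overlapped, and corticosterone replicate 1, a library of other effective length, was far below the other 7 libraries. Corticosterone replicate 2, also of other effective length, was not low. The log2 fold change was -0.14 (95% interval -1.06 to 0.78, edgeR adjusted p = 0.818). Without corticosterone replicate 1 it was 0.16 (adjusted p = 0.449), so its sign rests on that library.

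Most of the counts of Serpine2 were not on its coding transcript. The retained-intron transcript Serpine2-206 held 88.4% of them over the 8 libraries, and the coding transcript Serpine2-201 held 9.66%. In corticosterone replicate 1 Serpine2-206 had 18.2 estimated counts, beside 74.2 to 96.0 in corticosterone replicates 2 to 4. Serpine2-201 had 5.84, 4.38, 7.42 and 0 estimated counts in corticosterone replicates 1 to 4 and 14.7, 10.6, 3.59 and 14.0 in medium replicates 1 to 4. The summed counts, rounded to 18 and 43, gave a depth-corrected ratio of 0.431 with an exact 95% interval of 0.234 to 0.764, which covers counting error only. Over libraries, the coding transcript was at 0.143 ± 0.0988 CPM with corticosterone and 0.343 ± 0.13 CPM in medium (SD, n = 4 each). The groups overlapped, and a two-sided exact permutation test, chosen after the counts were seen, gave p = 0.0857 (smallest possible 0.0286).

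**Figure D4:**
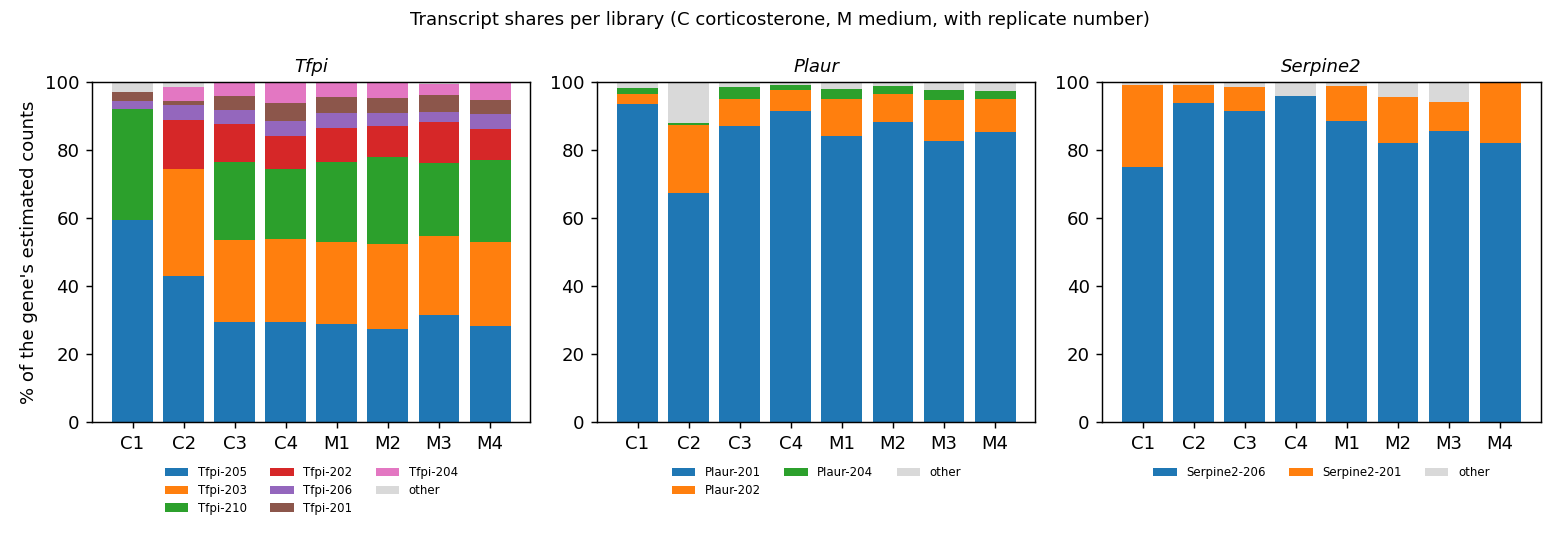
Stacked bars give each transcript's share of its gene's estimated counts (percent, vertical axis) in corticosterone (C) and medium (M) libraries by replicate number, for Tfpi, Plaur and Serpine2. Tfpi-205 stands at 59.6% in C1 and 43.1% in C2 against 27.4% to 31.6% in the other 6, and Serpine2-206 leads in all 8.

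Among inhibitors of fibrinolysis, Serpine2 included, 0 of the 3 tested were called by edgeR, DESeq2 or limma, and 0 had an unadjusted edgeR p under 0.05. Of all genes tested, edgeR called 40.1%. Serpini1, the neuroserpin gene, was at 1.08 CPM with corticosterone and 0.913 CPM in medium (edgeR adjusted p = 0.383).

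Of the thrombin receptors, F2r, the gene of protease-activated receptor 1, fell from 108 ± 5.06 to 54.6 ± 2.67 CPM (log2 fold change -0.99 ± 0.041, edgeR adjusted p = 1.85e-09). F2rl3, another thrombin receptor gene, was at 20.7 CPM with corticosterone and 19.8 CPM in medium (edgeR adjusted p = 0.562). Among genes whose products restrain platelets, 3 of the 4 tested rose, where 19.5% of all genes tested were higher. On TPM in all 8 libraries limma called 1 of them, Nt5e (Entpd1 adjusted p = 0.135, Nos3 adjusted p = 0.0617). Nt5e passed the filter of TPM of 1 in 4 libraries only through corticosterone, at 1.37 to 2.02 TPM beside 0.277 to 0.567 TPM in medium. Entpd1 and Nt5e, which break down platelet-activating nucleotides to adenosine, rose from 123 to 179 CPM and from 1.17 to 4.10 CPM (log2 fold change 0.54 and 1.78, edgeR adjusted p = 5.55e-08 and 5.74e-06), and Nt5e differed by 0.90 on log2(TPM + 1). Nos3, the endothelial nitric oxide synthase gene, rose with a log2 fold change of 0.22, or 0.35 on that TPM scale. The 5 genes of the vitamin K cycle and of factor export were all tested, and 0 were called by edgeR, DESeq2 or limma. None had an unadjusted edgeR p under 0.05. Of all genes tested, edgeR called 40.1%.

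Over the 59 pathway genes besides the members, 32 were tested, of which 14 were higher, 6 were lower and 12 were not called, where 19.5% of all genes tested were higher and 20.6% were lower. Their median log2 fold change was 0.086. The genes that failed the filter, F3 among them, numbered 28, with totals of 0 to 49 counts over the 8 libraries. On TPM in all 8 libraries limma called 11 of the 31 tested there, where it called 1527 of all 12297 genes tested. Called on counts but not there were Pros1, Anxa5, Anxa2, S100a10, Lrp1, Rab27a, Rab3d, Entpd1 and Nos3. In the 6 libraries of one TPM scale limma called 15 of the 30 tested, and Pros1, Lrp1, Rab27a and Rab3d were still not called. Nt5e was not tested there, since only corticosterone replicates 3 and 4 (1.66 and 1.37 TPM) reached a TPM of 1. Mmrn2 lost its call with the replicate block (edgeR adjusted p = 0.0618).

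**Figure D5:**
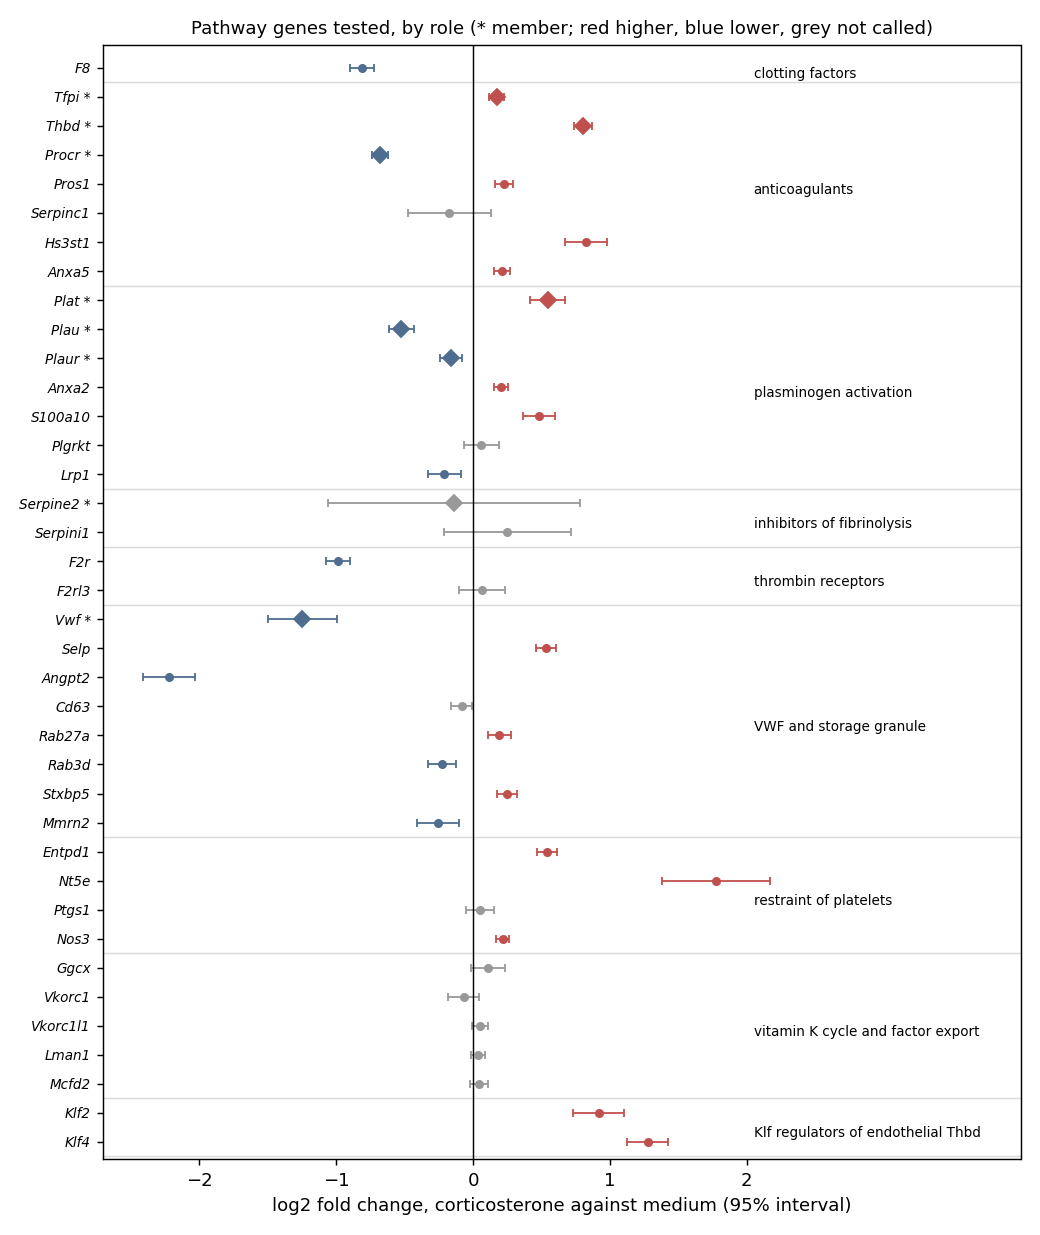
Log2 fold change of corticosterone against medium with its 95% interval (horizontal axis) for 38 of the 40 pathway genes tested, grouped by role, with diamonds and asterisks for members, red for higher, blue for lower and grey for not called. Thbd and Procr lie on opposite sides of 0, as do Plat and Plau, and the 5 vitamin K cycle and export genes lie close to 0.

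As a description of pattern, the tested genes were ranked by Pearson correlation of log2 CPM over the 8 libraries. Genes without a symbol or with one of the Gm, Rik, ps or AC kind were left out. The genes most like Thbd were Hecw2 (r = 0.999), Dusp3 (r = 0.999) and Ednrb (r = 0.998). Those most like Vwf were Sparcl1 (r = 0.997), Cxcl12 (r = 0.997) and Phlpp2 (r = 0.996). The libraries fall into 2 groups, and 1587 of the genes kept had r above 0.9 with Thbd and 1266 with Vwf.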

How the data were processed

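Poly(A) RNA of 4 corticosterone and 4 medium samples was prepared with a directional kit, per the labels' protocols. The authors' tools were bcl2fastq and kallisto 0.46.1 with the mm10/GRCm38 mouse genome, per the submitters' processing notes. Not given in the sources used here are the index, the read layout, whether strand was used and how transcripts were joined into genes. Estimated counts per gene were deposited by the authors as a single table, and for each library, a table gives every transcript's estimated count, effective length and TPM, per the file headers. The gene table equalled the summed transcripts within 0.5 counts for 99.997% of genes. Of its 35852 rows, 35773 matched a GENCODE M21 symbol, and of 119414 transcripts 97.276% matched. In each member, at least 98.6% of the 31-base stretches occurred in no other gene.

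Estimated counts, as deposited, were rounded and tested with edgeR 4.0.16 (filterByExpr, TMM scaling, robust quasi-likelihood fit of the 8 libraries, group as the single term) in R 4.3.3, with Benjamini-Hochberg adjustment over 13272 genes and a threshold of 0.05. The scripts were tested on simulated data of 13090 genes. Of 99 genes with a true log2 change of 0.5 in size, 59.6% were recovered, and 86.5% of 96 with a change of 1. Of the calls, 5.96% were false. Far fewer genes were changed there than the 40.1% called here. Fold changes are corticosterone against medium. CPM used TMM-scaled totals. The deposited TPM were summed per gene and used for levels between genes. Exact permutation tests were two-sided, and the intervals of F3 and the coding Serpine2 transcript are exact for 2 Poisson counts. PCR duplicates carry no molecular identifiers, so intervals on counts cover counting error only.

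The members and lists were chosen with earlier results of these data known. Beyond the 9 members, the pathway genes named were those called with a log2 change of at least 0.5 in size, the fixed genes Klf2, Klf4, Tfpi2, F2r, Anxa2, S100a10 and Angpt2, and the 3 genes most like Thbd and Vwf. Fkbp5, F7, F9, F11, F13b, Fga, Fgb, Fgg, Plg, Adamts13, Serpinc1, Pros1, Anxa5, Lrp1, F2rl3, Nos3, Rab27a, Rab3d, Serpini1, Stxbp5 and Mmrn2 were named after their values were seen. Some genes of the lists are not reported here by name, and the counts include them. The other marker lists had 0 to 2 genes called each by edgeR, which called 40.1% of all genes tested. Pericyte and smooth muscle markers summed to 4.06 to 6.13 CPM with corticosterone and 5.67 to 7.08 CPM in medium. In the same order, macrophage and leukocyte markers summed to 17.5 to 19.8 and 18.5 to 20.2 CPM. Those of astrocytes and neurons summed to 0.698 to 1.01 and 0.209 to 0.657 CPM. Alternatives were DESeq2 1.42.0, limma 3.58.1 on counts and on log2(TPM + 1) or log2(TPM + 0.1) with a filter of TPM of 1 in 4 libraries or none, other scalings, no count filter, fewer libraries and a replicate block. Where 1 replicate was left out, 3 libraries remained in its group.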

Additional observations from a re-analysis of the deposited data

Results flagged for a closer look

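Among 44 groups of 4 libraries examined, 2 had a library far from the other 3 of its group, where chance flags about 1 in 20 groups. Serpine2 stood at 0.760 CPM in corticosterone replicate 1, a library of other effective length, beside 2.78 to 3.19 CPM in the other corticosterone libraries. F8 stood at 153.7 CPM in medium replicate 2, beside 141 to 143 CPM in the other medium libraries.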

How the results depend on the processing

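Over 20 alternatives the directions of Thbd, Procr, Plat, Plau, Plaur, Tfpi and Vwf held, and 7 members passed in all but the 3 limma fits on TPM of all 8 libraries, where 5 passed. There Tfpi (adjusted p 0.0907 to 0.164) and Plaur (0.202 to 0.256) were lost. Those fits called 1527, 1497 and 1312 genes in all (in the first, 927 higher and 600 lower, beside 2590 and 2737 on counts) and 11, 11 and 10 other pathway genes. Limma on TPM in 6 libraries, chosen after seeing the data, called 2706 genes and gave Serpine2 a log2 fold change of 0.082. Serpine2 was also above 0 in the 6-library count fit (0.148), with a term for the 2 libraries of other effective length (0.152) and in the leave-one-out fit without corticosterone replicate 1 (0.159), over leave-one-out values of -0.299 to 0.159; the low count of that library moves its sign. Expression showed no pairing of samples by replicate number (same-numbered correlations -0.053 to 0.030, and 0 of 4 corticosterone samples correlated best with their own number). These correlations cannot tell whether same-numbered samples were prepared together. With the replicate block 4913 genes, 7 members and 19 other pathway genes passed. Depth limits F3 and the coding transcript of Serpine2.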
